A study of Mus musculus with 12 samples.

Results

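T lymphocyte and natural killer (NK) cell transcripts were followed in whole mouse lungs by looking up every probe set annotated to 38 named genes. Of these, 25 are listed for T cells and 13 for NK and other cytotoxic lymphocytes, beside 18193 genes with a probe set of their own on the array. The rule lists the genes by name and cell type. A place on either list does not make a gene specific to that cell type. Total lung RNA from 12 mice aged 8 to 12 weeks was measured on 12 Affymetrix arrays, 3 mice in each of 4 groups. Wild type and knockout mice each formed 2 groups, one labelled SB, which the series design treats as the control, and the other with VILI. VILI is lung injury caused by a mechanical ventilator, and the labels give a tidal volume of 30 ml/kg, a rate of 65 breaths per minute and a duration of 4 hours. In the titles the knockout appears as GADD45-/-, the VILI labels as GADD-/-, and the series title names Gadd45a, a stress-inducible nuclear protein. SB is not spelled out, and the labels state no strain, sex, batch or tissue restriction of the deletion. The study asked how Gadd45a loss bears on ventilator-induced injury, and lymphocyte transcripts are one component of the lungs it compared.

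T cells recognise antigen through a receptor whose signal is carried into the cell by the CD3 chains and CD247. The co-receptors CD4 and CD8 and the co-stimulator CD28 strengthen that signal, the kinases Lck and Zap70 relay it, and the adaptor Lat collects it. NK cells carry no such receptor. They read activating and inhibitory receptors such as Klrk1 (NKG2D), Klrd1 (CD94) and Ncr1 (NKp46), and kill through granules that hold perforin and granzymes. Activated CD8 T cells share the granule genes, so a granzyme transcript does not name its cell. In a resting mouse lung, T and NK cells circulate through the capillary bed and sit in small numbers in the tissue, and lymphoid aggregates around airways also hold B cells.

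Upstream sequences are shown for pairs and groups whose levels are described together in the results. They are the 250 bases before the start of each gene in RefSeq, build GRCm38.p6, written 5′ to 3′ on the strand of the gene. RefSeq upstream windows were found for 26 of the 38 genes. Capitals mark matches, on either strand, to TGTGGT (a core bound by Runx factors), AGGAAG (an Ets core) or CTTTGA (a core bound by Tcf and Lef factors). The motifs were chosen with the sequences in view. Cd3d and Cd3g lie head to head on chromosome 9, with their starts 1355 bases apart, at chr9:44981536-44981785 on the plus strand and chr9:44980432-44980681 on the minus strand.
Cd3d: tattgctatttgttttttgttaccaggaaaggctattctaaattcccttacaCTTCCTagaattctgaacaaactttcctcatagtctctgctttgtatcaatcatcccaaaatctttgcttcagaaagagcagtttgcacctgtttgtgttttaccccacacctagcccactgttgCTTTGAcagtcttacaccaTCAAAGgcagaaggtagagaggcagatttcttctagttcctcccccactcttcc
Cd3g: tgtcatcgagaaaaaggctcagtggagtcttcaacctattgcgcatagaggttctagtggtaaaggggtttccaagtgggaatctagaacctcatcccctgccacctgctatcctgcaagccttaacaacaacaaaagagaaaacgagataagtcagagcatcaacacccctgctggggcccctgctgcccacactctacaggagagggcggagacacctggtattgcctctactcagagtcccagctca
The granule genes Gzma (chr13:113100982-113101231, minus), Gzmb (chr14:56262335-56262584, minus), Nkg7 (chr7:43436888-43437137, plus) and Prf1 (chr10:61297586-61297835, plus) lie on separate chromosomes.
Gzma: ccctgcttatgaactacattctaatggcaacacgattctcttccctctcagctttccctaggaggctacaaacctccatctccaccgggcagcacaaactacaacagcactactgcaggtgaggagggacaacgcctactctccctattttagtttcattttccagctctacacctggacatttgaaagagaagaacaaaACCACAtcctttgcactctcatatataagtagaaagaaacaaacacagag
Gzmb: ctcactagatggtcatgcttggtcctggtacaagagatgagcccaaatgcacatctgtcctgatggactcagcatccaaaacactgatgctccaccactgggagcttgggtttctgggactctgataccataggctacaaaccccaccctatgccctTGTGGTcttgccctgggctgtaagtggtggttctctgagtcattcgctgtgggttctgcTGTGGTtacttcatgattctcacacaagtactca
Nkg7: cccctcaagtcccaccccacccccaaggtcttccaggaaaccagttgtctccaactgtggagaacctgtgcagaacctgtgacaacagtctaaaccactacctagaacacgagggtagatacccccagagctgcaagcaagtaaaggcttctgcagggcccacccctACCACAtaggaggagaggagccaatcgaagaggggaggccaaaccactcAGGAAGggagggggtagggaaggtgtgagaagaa
Prf1: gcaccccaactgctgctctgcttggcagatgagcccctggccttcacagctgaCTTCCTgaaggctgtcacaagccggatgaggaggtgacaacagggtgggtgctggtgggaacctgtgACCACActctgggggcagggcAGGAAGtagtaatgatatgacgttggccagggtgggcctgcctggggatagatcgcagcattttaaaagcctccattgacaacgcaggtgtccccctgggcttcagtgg
Each of the 4 granule windows held TGTGGT or its reverse complement, 50 bases before the start in Gzma, 93 and 34 in Gzmb, 83 in Nkg7 and 130 in Prf1. The motif stood in 8 of 11 windows of the NK and cytotoxic genes (72.7%), in 3 of 24 windows of the T cell genes (12.5%) and in 14.0% of all 32851 windows. CTTTGA stood in 5 of the 24 T cell windows (20.8%), with 2 matches in Cd3d, in 0 of the 11 NK windows and in 13.8% of all windows. AGGAAG stood in 12 of 24 T cell windows (50%), 4 of 11 NK windows (36.4%) and 29.5% of all windows. The window of Cd3g held none of the 3 letter strings. These matches describe letters and do not show that a factor binds there.

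All values are log2 expression levels. Array medians lay between 4.36 and 4.58, pairs of arrays within a group correlated at 0.963 to 0.995 over 10996 genes, and precision is limited by having 3 arrays a group. Gadd45a read 8.62 to 10.33 on the 6 wild type arrays and 4.58 to 6.15 on the 6 knockout arrays. Lung-defining genes, 9 of 9 measured, had a mean of 13.4 on replicate 3 of knockout VILI and of 13.7 to 14.0 on the 11 other arrays. Each of the 9 lay below the mean of the other 2 arrays of that group, with a median gap of -0.34. Replicate 3 of each knockout group (SB and VILI) stood apart from the other 10 arrays in lymphocyte genes. Their mean over 9 measured B cell markers was 9.42 and 10.2, against 5.32 to 7.31 elsewhere. Their mean over Cxcl13, a chemokine of lymphoid follicles, and the lymphocyte genes Ltb and Cd37 was 8.71 and 9.86, against 5.61 to 7.33. Results that rest on these arrays are given with and without them.

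A gene entered the tests when one of its probe sets lay above the array median on at least 3 arrays. Of the 38 genes, 17 did, 10 T cell and 7 NK or cytotoxic. Another 18 had probe sets that did not reach this level, and 3 had no probe set of their own. Those 3 were Lck, Tcf7 and Klrb1c (NK1.1). The probe set of Klrb1c is shared with Klrb1b, so no value is given for it. Cd3g passed on 3 arrays, all from knockout mice (SB replicates 1 and 3 and VILI replicate 3), so its inclusion already depends on where it was high. Its values are given as a description, and counts of knockout differences are also given over the 16 others.

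None of the 17 tested genes passed an adjusted p of 0.05 in any of 7 contrasts (limma, Benjamini-Hochberg adjustment over 10996 genes). Over all genes tested, 2.64% passed for VILI in wild type, 4.47% for VILI in knockout and 17.8% for VILI averaged over the genotypes. The shares were 0.109% for knockout against wild type in SB, 0.1% after VILI, 0.455% averaged over treatments and 0% for the interaction, the VILI change of knockout minus that of wild type. The absence of calls among 17 genes is therefore read against small shares for every genotype contrast. Without the 2 arrays that stood apart, again 0 of the 17 passed, and the shares over all genes were 5.94%, 1%, 14.8%, 0.118%, 0.127%, 0.255% and 0% in the same order.

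**Figure D1:**
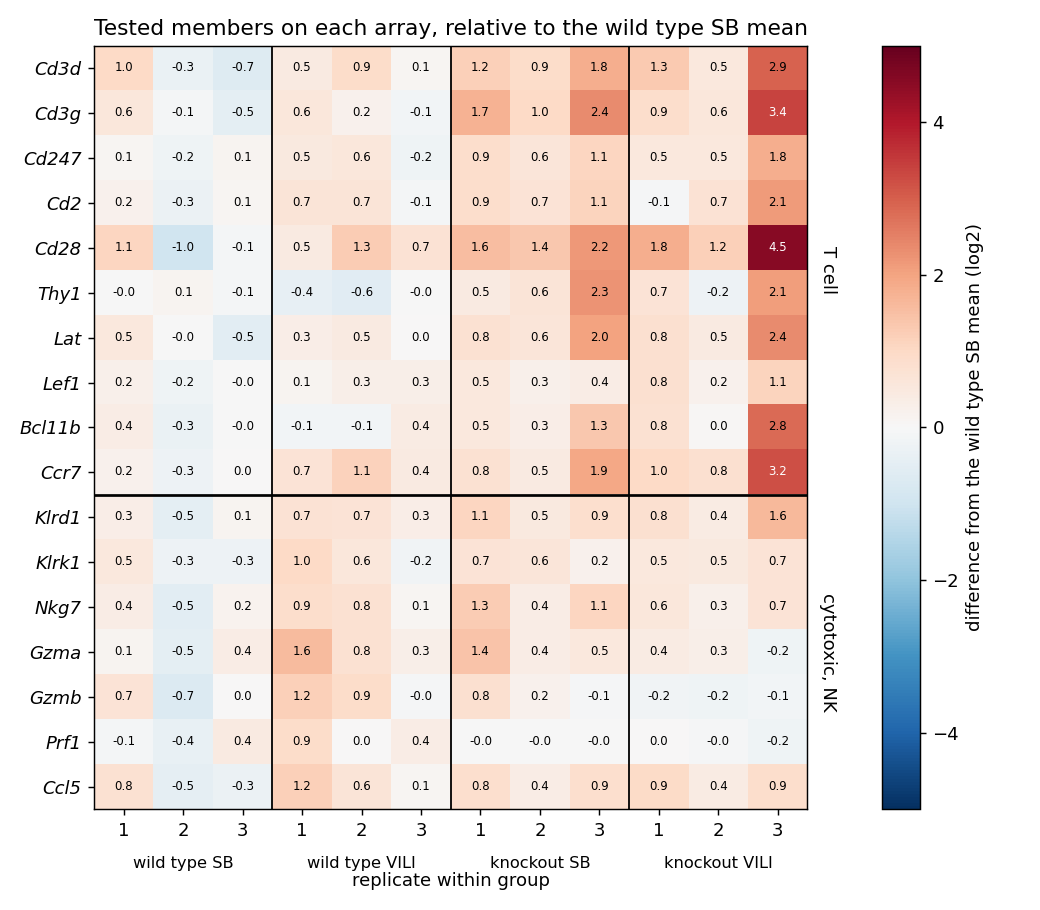
Difference of each array from the wild type SB mean (log2, colour and printed value) for the 17 tested genes, rows, on the 12 arrays, columns, grouped by genotype and treatment, with T cell genes above the black line and NK and cytotoxic genes below it. The T cell rows other than Lef1 are highest at replicate 3 of both knockout groups, and none of the 7 NK and cytotoxic rows has its highest 2 values there.

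The T cell receptor chains read highest on the 2 knockout arrays that stood apart. In whole lung RNA, more cells of a type and more RNA per cell cannot be told apart, here and in all that follows. Cd3d, a signalling chain of the receptor, read 7.09, 5.76 and 5.44 in wild type SB lungs and 6.56, 7.0 and 6.18 with VILI, and 7.28, 7.0 and 7.93 in knockout SB lungs and 7.40, 6.65 and 9.04 with VILI. Its knockout SB and wild type SB arrays overlapped, through wild type SB replicate 1. Cd3g, its partner chain, was chosen after its values were seen. It read 3.90, 3.23 and 2.86 in wild type SB lungs and 3.90, 3.54 and 3.21 with VILI, and 5.06, 4.31 and 5.69 in knockout SB lungs and 4.20, 3.90 and 6.69 with VILI. Each knockout array of Cd3g lay above each wild type array, although the nearest ones both round to 3.90. Cd247, the zeta chain, likewise named after its values were seen, averaged 4.97 ± 0.20 in wild type SB and 5.81 ± 0.24 in knockout SB (SD, n = 3), with no overlap. Cd3e, the chain most often used to identify T cells, was not tested. Its probe set read 3.42, 3.39 and 3.27 in wild type SB lungs and 3.19, 3.35 and 3.32 with VILI, and 3.47, 3.87 and 4.42 in knockout SB lungs and 3.44, 3.34 and 4.45 with VILI. The highest 2 values were on the same pair of arrays.

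Co-stimulators followed the receptor chains. Cd28, the main co-stimulatory receptor of naive T cells, read 5.71, 3.65 and 4.54 in wild type SB lungs and 5.09, 5.89 and 5.37 with VILI, and 6.19, 5.99 and 6.79 in knockout SB lungs and 6.44, 5.81 and 9.17 with VILI. The knockout SB arrays lay above the wild type SB arrays, while after VILI the genotypes overlapped. Its other probe set, which was not kept, read 2.86 to 4.37 on the 10 other arrays and 5.83 and 8.15 on the pair. Thy1, a surface glycoprotein of T cells that some stromal and neural cells also carry, read 5.93, 6.07 and 5.85 in wild type SB lungs and 5.54, 5.38 and 5.95 with VILI, and 6.41, 6.59 and 8.21 in knockout SB lungs and 6.62, 5.70 and 8.03 with VILI. Among the 10 tested T cell genes, Thy1 had the largest gap at knockout SB replicate 3, 1.72 above the mean of the other 2 arrays of its group. Cd2, an adhesion receptor, ranged from 6.13 to 8.55.

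The co-receptors that divide T cells into helper and cytotoxic kinds did not reach the level for testing. Cd4 read 3.41, 3.48 and 3.27 in wild type SB lungs and 3.46, 3.31 and 3.49 with VILI, and 3.53, 3.52 and 4.09 in knockout SB lungs and 3.44, 3.47 and 4.24 with VILI. Cd8a read 4.31, 4.24 and 4.25 in wild type SB lungs and 4.31, 4.32 and 4.32 with VILI, and 4.35, 4.30 and 4.56 in knockout SB lungs and 4.31, 4.28 and 5.02 with VILI. Both varied little across 10 arrays and were highest on the pair. Cd8a lay close to the array medians. Cd8b1, the second CD8 chain, ranged from 2.68 to 4.41, Cd5 from 2.40 to 5.30, Cd6 from 2.22 to 3.36 and Cd27 from 3.12 to 3.50. Ctla4, the inhibitory receptor of activated and regulatory T cells, was named after its values were seen. It read 5.07 in knockout SB replicate 3 and 8.21 in knockout VILI replicate 3, against 2.81 to 3.46 on the other 10 arrays. Icos, an inducible co-stimulator of follicular helper T cells, was also named afterwards. It read 5.24 and 7.55 on the pair, against 2.61 to 4.41 elsewhere.

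Among signalling proteins, Lat, the membrane adaptor below the receptor, was the only tested member. Its SB and VILI means were 6.36 ± 0.51 and 6.63 ± 0.22 in wild type, against 7.49 ± 0.78 and 7.57 ± 1.02 in knockout (SD, n = 3). The knockout arrays of Lat lay above the wild type arrays within each treatment. Zap70, the kinase recruited by the receptor, ranged from 2.42 to 3.50, Txk, a Tec kinase, from 2.21 to 2.37, and Skap1, an adaptor for adhesion, from 3.53 to 5.11. None of these last 3 was tested.

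The homing receptor Ccr7 and the factor Bcl11b read highest on the same pair of arrays, while Lef1 did not have its highest 2 values there. Ccr7, which brings naive T cells and dendritic cells to lymph nodes, read 5.95, 5.46 and 5.75 in wild type SB lungs and 6.41, 6.85 and 6.16 with VILI, and 6.49, 6.17 and 7.64 in knockout SB lungs and 6.73, 6.52 and 8.96 with VILI. Each other group of Ccr7 lay above wild type SB without overlap. Bcl11b, a factor that holds T cell identity, ranged from 5.64 to 7.33 apart from 8.80 on knockout VILI replicate 3. Lef1, a factor of naive T cells, ranged over 5.88 to 7.19 by its main probe set. The second Lef1 probe set disagreed with the first in pattern: it read 3.56 to 3.84 in wild type SB lungs and 4.57 to 4.70 with VILI, and 4.75 to 5.52 in knockout SB lungs and 4.71 to 5.62 with VILI. Gata3, the factor of type 2 helper cells, ranged from 2.33 to 4.66 and was not tested.

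The T cell genes therefore shared a pair of high arrays that the rule did not use. The pair was set apart for its lymphocyte genes in these same data, so the counts here describe it and are no independent support. In 9 of the 10 tested T cell genes the highest 2 values lay in knockout SB replicate 3 and knockout VILI replicate 3, against 4.84% of all genes tested; the exception was Lef1. Without Cd3g it was 8 of 9. The same held for 9 of the 13 untested T cell genes, and the share among all untested genes was not counted. Of the 7 tested NK and cytotoxic genes, 0 had this ordering. Knockout VILI replicate 3 held the highest value for 9 of 10 T cell genes (8 of 9 without Cd3g) and for Klrd1 alone of the 7 NK genes, against 13.6% of all genes. The median T cell gene lay 0.85 above the other 2 arrays of its group in knockout SB replicate 3 and 1.94 above in knockout VILI replicate 3. Cd3g is one of these 10 genes, with gaps of 1.01 and 2.64. The median NK gene lay at -0.02 and 0.18, the median of 9 B cell markers at 2.79 and 3.20, and the median of all genes at -0.05 and -0.04. The B cell mean, from 9 of 15 listed markers, spanned 5.32 to 7.03 in wild type SB lungs and 6.61 to 7.10 with VILI, and 6.37 to 9.42 in knockout SB lungs and 6.61 to 10.2 with VILI. The mean of Cxcl13, Ltb and Cd37, the 3 genes measured of 9 on a list for lymphoid stroma, spanned 5.81 to 6.71, 5.61 to 6.12, 6.29 to 8.71 and 7.06 to 9.86. B cell markers and these 3 genes thus moved with the T cell genes on these arrays, and their part in the knockout differences was not tested. Of 10 genes listed for immature thymocytes 4 were measured, Cd1d1, Satb1, Tox and Mns1, and the listing does not name the cell that carried them. They averaged 7.63 and 8.01 on the pair against 6.76 to 7.24 on the other arrays, with median gaps of 0.80 and 1.04, and their part was not tested. Rag1, Rag2, Dntt and Ptcra, also on that list, did not reach the level for testing.

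**Figure D2:**
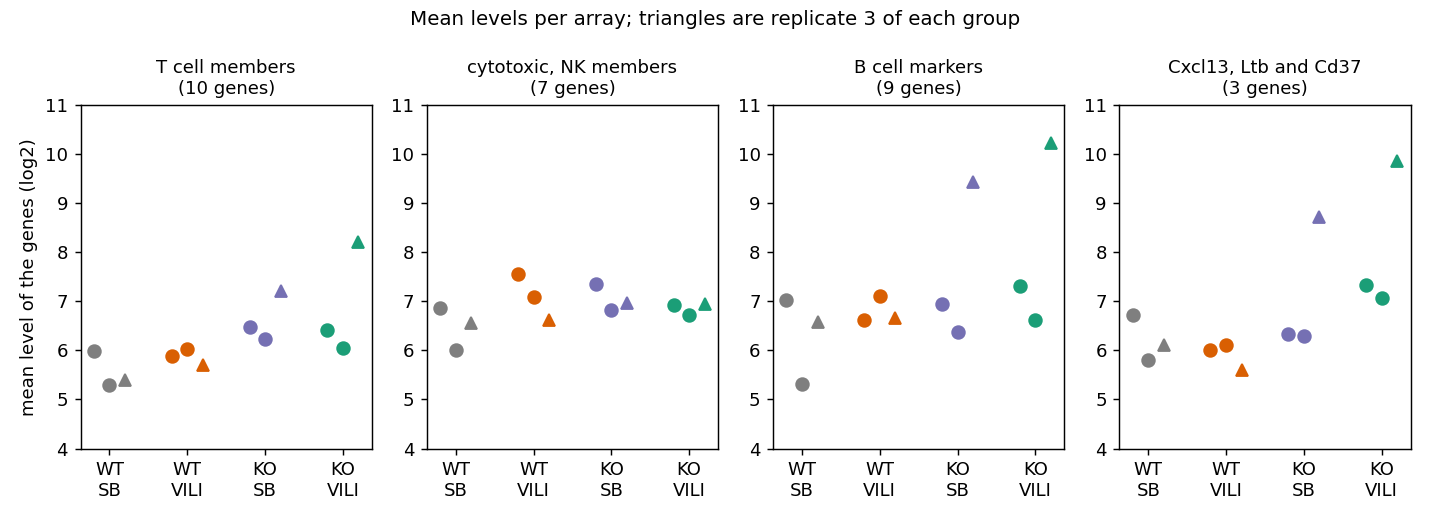
Mean log2 level of the measured genes of each set on every array, by group, for 10 T cell genes, 7 cytotoxic and NK genes, 9 B cell markers, and Cxcl13, Ltb and Cd37; triangles are replicate 3 of each group. The 2 knockout triangles are highest for T cell genes (7.20 and 8.20), B cell markers and the last 3 genes, while the cytotoxic mean there (6.97 and 6.95) lies within the range of the other arrays.

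Of the NK receptors, Klrd1 and Klrk1 were tested. Klrd1, the CD94 chain that pairs with NKG2 receptors, read 7.68, 6.84 and 7.48 in wild type SB lungs and 8.07, 8.01 and 7.65 with VILI, and 8.40, 7.81 and 8.19 in knockout SB lungs and 8.14, 7.75 and 8.94 with VILI. Its knockout SB arrays lay above its wild type SB arrays, and wild type SB and wild type VILI overlapped. Klrk1, the NKG2D receptor for stress ligands, read 4.80, 4.02 and 4.01 in wild type SB lungs and 5.26, 4.83 and 4.12 with VILI, and 4.98, 4.88 and 4.5 in knockout SB lungs and 4.81, 4.77 and 4.97 with VILI. All 4 groups of Klrk1 overlapped. Ncr1, the most NK-restricted of these receptors, read 2.25, 2.24 and 2.26 in wild type SB lungs and 2.25, 2.26 and 2.26 with VILI, and 2.43, 2.24 and 2.24 in knockout SB lungs and 2.25, 2.26 and 2.24 with VILI. It did not reach the level for testing and lay between 2.24 and 2.43 on all 12 arrays. Il2rb, the interleukin-2 and interleukin-15 receptor chain, ranged from 3.44 to 4.78 and was not tested. Tbx21 (T-bet) and Eomes, the factors of cytotoxic lymphocytes, ranged from 2.14 to 2.62 and from 3.28 to 3.40.

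Gzma, Gzmb and Prf1 each had the highest single value on wild type VILI replicate 1. Gzma, granzyme A, read 8.71, 8.06 and 8.92 in wild type SB lungs and 10.13, 9.33 and 8.84 with VILI, and 9.98, 8.92 and 9.10 in knockout SB lungs and 8.97, 8.86 and 8.37 with VILI. Gzmb, granzyme B, read 7.49, 6.14 and 6.82 in wild type SB lungs and 8.01, 7.74 and 6.78 with VILI, and 7.62, 7.04 and 6.77 in knockout SB lungs and 6.64, 6.62 and 6.67 with VILI. The 3 knockout VILI arrays of Gzmb spanned 6.62 to 6.67, below every array of wild type VILI and of knockout SB. Prf1, perforin, which opens the target membrane, read 4.49, 4.23 and 5.03 in wild type SB lungs and 5.51, 4.60 and 4.93 with VILI, and 4.57, 4.57 and 4.55 in knockout SB lungs and 4.58, 4.54 and 4.38 with VILI. After VILI the Prf1 arrays of the genotypes did not overlap, although its level was close to the array median. Nkg7, a granule membrane protein, was named after its values were seen. It read 5.55, 4.63 and 5.34 in wild type SB lungs and 6.07, 5.93 and 5.27 with VILI, and 6.44, 5.54 and 6.27 in knockout SB lungs and 5.75, 5.44 and 5.85 with VILI.

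The secreted products of these cells differed in whether they could be read. Ccl5, a chemokine made by activated T and NK cells, read 9.36, 8.13 and 8.28 in wild type SB lungs and 9.76, 9.22 and 8.69 with VILI, and 9.41, 8.95 and 9.44 in knockout SB lungs and 9.53, 9.01 and 9.48 with VILI. All its groups overlapped. Ifng, interferon gamma, read 2.43, 2.43 and 2.45 in wild type SB lungs and 2.43, 2.47 and 2.44 with VILI, and 2.41, 2.42 and 2.41 in knockout SB lungs and 2.43, 2.44 and 2.43 with VILI. That probe set did not reach the level for testing, and its values spanned 2.41 to 2.47.

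**Figure D3:**
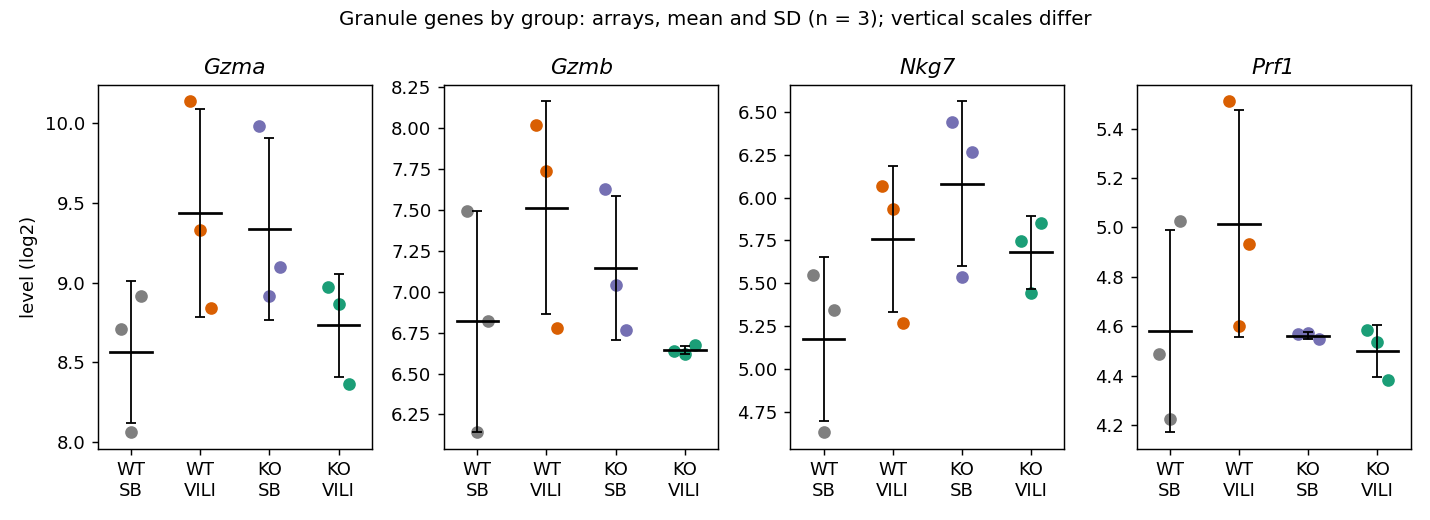
Log2 levels of the granule genes Gzma, Gzmb, Nkg7 and Prf1 on each array (points) by group, with the mean (bar) and SD (whisker), n = 3; vertical scales differ between panels. Gzmb in knockout VILI stands at 6.62 to 6.67, below the 6.78 to 8.01 of wild type VILI.

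The next comparison asked what VILI did to these transcripts in wild type lungs. All 7 tested NK and cytotoxic genes had a positive change, with a median of 0.58, while the T cell genes had a median of 0.27 with 9 of 10 positive, and all genes a median of -0.05. Gzma changed by 0.87 (SE 0.36, adjusted p = 0.198), Gzmb by 0.69 (SE 0.37, adjusted p = 0.310) and Ccl5 by 0.64 (SE 0.34, adjusted p = 0.303). Klrd1 and Nkg7 each changed by 0.58 (adjusted p = 0.299 and 0.304), Klrk1 by 0.46 and Prf1 by 0.44. None of these passed. At an unadjusted p under 0.05, Gzma was the 1 gene of 17, against 8.18% of all genes in that direction. The arrays of the groups did not overlap for 1 of 17, Ccr7 (change 0.75, SE 0.56), against 11.6% of all genes. Cd28 changed by 0.82 (SE 0.74) and Cd3d by 0.48 (SE 0.57), and neither passed (adjusted p = 0.569 and 0.665). Single arrays weighed on these medians: wild type SB replicate 2 was the lowest array for 6 of 7 NK and 6 of 10 T cell genes, against 7.7% of all genes. Wild type VILI replicate 1 was the highest for 5 of 7 NK genes and 0 of 10 T cell genes, against 4.35%. Without wild type VILI replicate 1 the change of Gzma was 0.52, and without wild type SB replicate 2 that of Gzmb was 0.35.

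In knockout lungs the granule genes had negative VILI changes. Gzma changed by -0.60 (SE 0.36, adjusted p = 0.356), Gzmb by -0.50 (SE 0.37, adjusted p = 0.456) and Nkg7 by -0.40 (SE 0.31, adjusted p = 0.474). The median was -0.06 for the NK and cytotoxic genes and 0.21 for the T cell genes, beside 0.00 for all genes. Without the 2 arrays the T cell median was -0.09 and the NK median -0.16. No gene of the 17 had an unadjusted p under 0.05. Gzmb was the 1 gene whose VILI arrays all lay below its SB arrays, against 10.6% of all genes. Averaged over genotypes, the T cell median was 0.24 and the NK median 0.19, with 0 of 17 at an unadjusted p under 0.05. The largest averaged changes were 0.82 for Cd28 (SE 0.53, adjusted p = 0.304) and 0.70 for Ccr7 (SE 0.40, adjusted p = 0.247). Without the 2 arrays the averaged medians were 0.07 for the T cell genes and 0.17 for the NK genes. Ccr7 then changed by 0.52 (unadjusted p = 0.0105, adjusted p = 0.0604). It was the 1 of 16 genes other than Cd3g that was higher at an unadjusted p under 0.05, against 14.5% of all genes.

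**Figure D4:**
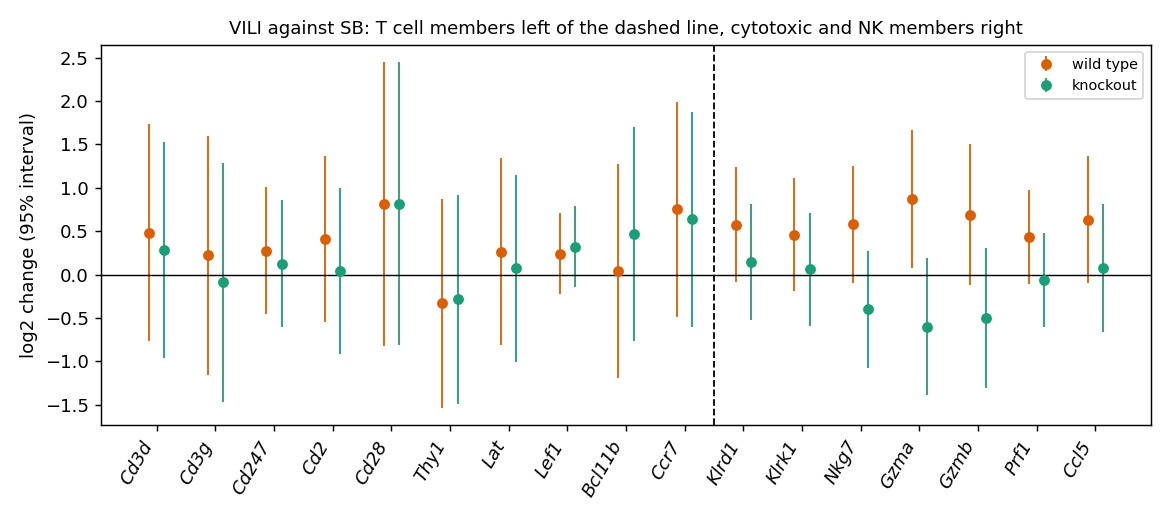
Fitted log2 change with VILI in wild type (orange) and knockout (green) lungs for each of the 17 tested genes, with 95% intervals; T cell genes stand left of the dashed line. The NK and cytotoxic points are all above 0 in wild type, and those of Gzma, Gzmb and Nkg7 are below 0 in knockout, with intervals that cover 0 in every case but Gzma in wild type.

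The interaction compared those VILI changes between the genotypes. It was -1.47 for Gzma (SE 0.51, unadjusted p = 0.0146), -1.19 for Gzmb (SE 0.52, unadjusted p = 0.0429) and -0.98 for Nkg7 (SE 0.44, unadjusted p = 0.0445), each with an adjusted p of 1.0. These were 3 of the 17 tested genes, against 0.591% of all genes at an unadjusted p under 0.05 in that direction. All 7 NK and cytotoxic genes had a negative interaction, with a median of -0.56, beside -0.13 for the T cell genes and 0.06 for all genes. Without the 2 arrays, Gzma stood at -1.40 (unadjusted p = 0.0384), Gzmb at -1.39 (0.0460) and Nkg7 at -0.98 (0.0872). Of the 16 genes other than Cd3g, 2 then had a negative interaction at an unadjusted p under 0.05, against 1.41% of all genes. In that fit all 10 T cell genes had a negative interaction too, so the sign was not particular to the NK genes. The medians were -0.46 for the T cell genes, -0.74 for the NK and cytotoxic genes and 0.05 for all genes. The difference between genotypes did not pass the adjusted threshold in either fit.

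The genotype comparison in SB lungs asked whether these transcripts differ without ventilation injury. The median difference, knockout minus wild type, was 1.08 for the T cell genes, all 10 positive, 0.68 for the NK and cytotoxic genes, 6 of 7 positive, and -0.06 for all genes. Cd28 differed by 1.69 (SE 0.74, adjusted p = 0.468) and Cd3d by 1.31 (SE 0.57, adjusted p = 0.467). Without Cd3g, the median of the other 9 T cell genes was 1.05. Among the NK genes Nkg7 differed by 0.91 (SE 0.31, adjusted p = 0.370), Klrd1 by 0.80 (SE 0.30, adjusted p = 0.407) and Gzma by 0.77 (SE 0.36, adjusted p = 0.503). At an unadjusted p under 0.05, 7 of 17 were higher (Cd3d, Cd3g, Cd247, Cd28, Lat, Klrd1 and Nkg7), or 6 of 16 without Cd3g, against 1.78% of all genes. The knockout arrays lay wholly above the wild type arrays for 10 of 17, 8 T cell genes with Klrd1 and Gzma, or 9 of 16 without Cd3g, against 3.76% of all genes; for Gzma the nearest arrays both read 8.92.

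Leaving out the 2 arrays reduced the T cell difference in SB and kept its sign. The T cell median became 0.71 with all 10 positive, or 0.68 with all 9 positive without Cd3g, and the NK median 0.65. Cd28 then differed by 1.46 (SE 0.51, adjusted p = 0.230) and Thy1 by 0.54 in place of 1.12. With 2 knockout SB arrays left, 11 of 17 (10 of 16 without Cd3g) did not overlap, against 11.2% of all genes, a share that is larger than before because fewer arrays are compared. Wild type SB replicate 2, the lowest array for 6 of 10 T cell and 6 of 7 NK genes, also weighed on the SB difference. With that array alone left out, Cd28 differed by 1.20, Nkg7 by 0.64 and Klrd1 by 0.56.

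After VILI the median knockout difference was 1.03 for the T cell genes and -0.08 for the NK and cytotoxic genes. Without Cd3g the T cell median was 0.94. Cd28 differed by 1.69 (SE 0.74, adjusted p = 0.721) and Cd3d by 1.11 (SE 0.57, adjusted p = 0.737). Without the 2 arrays these were 0.68 and 0.44, the T cell median was 0.36, with or without Cd3g, and the NK median -0.16. At an unadjusted p under 0.05, Cd3g, Cd28 and Lef1 were higher, 3 of 17 against 2.78% of all genes, and Gzmb was lower, 1 of 17 against 4.09%. Without Cd3g 2 of 16 were higher, and without the 2 arrays 0 of 17 had an unadjusted p under 0.05 in either direction. Non-overlapping arrays put Cd3g and Lat higher, 2 of 17 (1 of 16 without Cd3g) against 6.64%, and Gzmb and Prf1 lower, 2 of 17 against 8.13%. Gzmb differed by -0.87 (SE 0.37, adjusted p = 0.711), Gzma by -0.70 (SE 0.36) and Prf1 by -0.51 (SE 0.25). These 3 lay at -0.88, -0.52 and -0.46 without the 2 arrays.

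Averaged over treatments, all 10 T cell genes and Klrd1 had a higher level in knockout at an unadjusted p under 0.05, 11 of 17 (10 of 16 without Cd3g) against 4.06% of all genes. Their adjusted p did not pass, with 0.191 for Cd28 (1.69, SE 0.53) and for Cd247 (0.77, SE 0.24), and 0.246 for Klrd1 (0.58, SE 0.21). Without the 2 arrays the differences were 1.07 for Cd28 and 0.50 for Cd247. In that fit 7 of the 16 genes other than Cd3g were higher at an unadjusted p under 0.05, against 4.01% of all genes. Klrd1 (unadjusted p = 0.0671), Bcl11b (0.0801) and Cd2 (0.129) no longer were. This average reuses the arrays of the contrasts within SB and VILI and is no further evidence beside them.

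**Figure D5:**
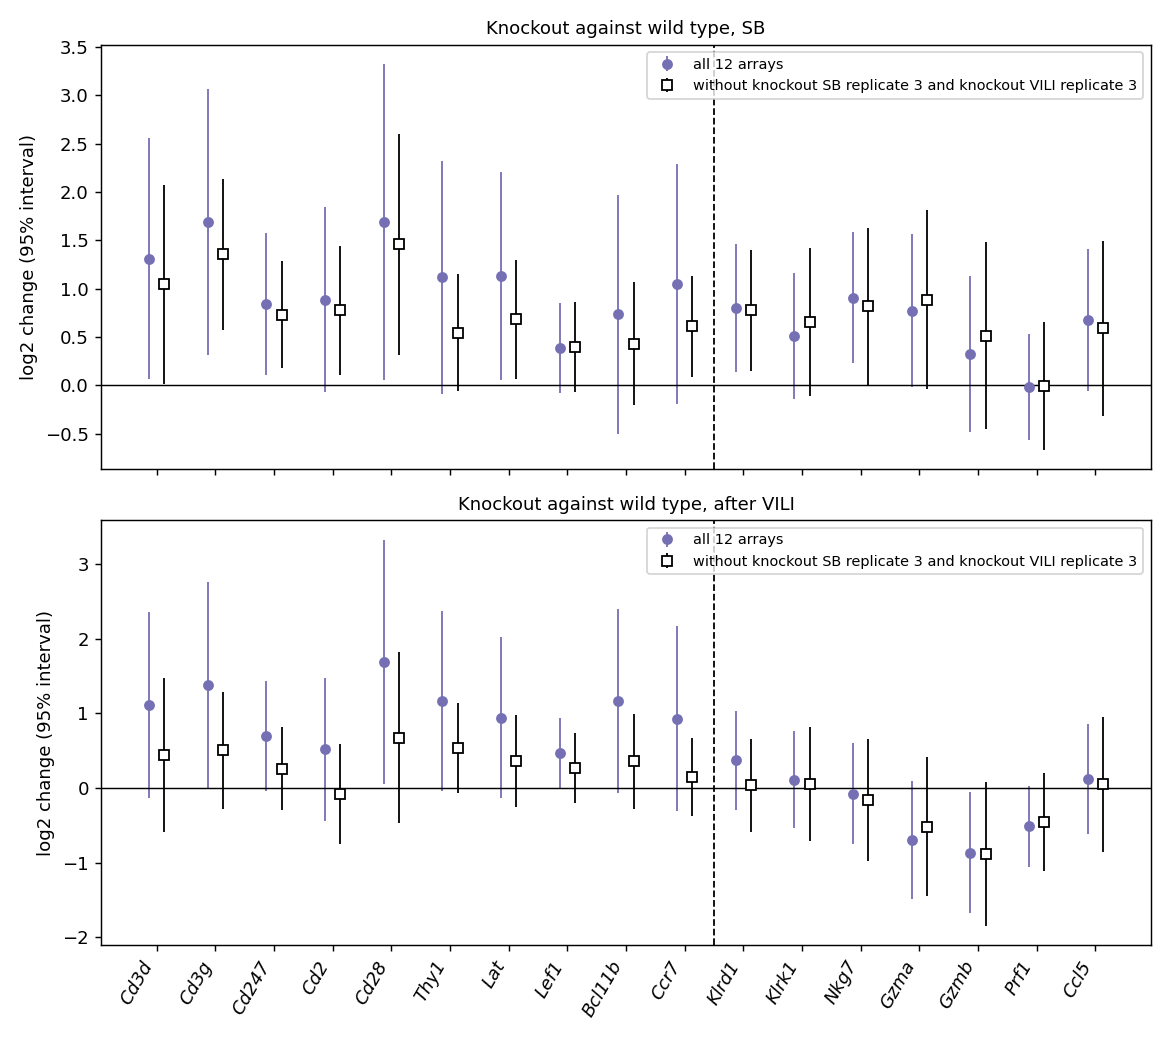
Fitted log2 difference, knockout minus wild type, with 95% intervals for the 17 tested genes in SB (top) and after VILI (bottom), from all 12 arrays (filled) and without knockout SB replicate 3 and knockout VILI replicate 3 (open squares). T cell genes, left of the dashed line, are above 0 in SB in both fits and move toward 0 after VILI once the 2 arrays are left out, where the median is 0.36.

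The contrast of NK with T cell genes was made on each array as the mean of the 7 NK and cytotoxic genes minus the mean of the 10 T cell genes. Levels of different probe sets are not on a common scale, so only its differences between arrays carry meaning. It read 0.88, 0.71 and 1.16 in wild type SB lungs and 1.67, 1.06 and 0.90 with VILI, and 0.86, 0.58 and -0.23 in knockout SB lungs and 0.51, 0.67 and -1.24 with VILI. The group means were 0.92 ± 0.22, 1.21 ± 0.40, 0.40 ± 0.56 and -0.02 ± 1.06 (SD, n = 3). The negative values are the 2 arrays that stood apart, and without them the knockout means were 0.72 in SB and 0.59 after VILI (n = 2). After VILI each knockout array lay below each wild type array with or without them. The T cell mean includes Cd3g, which entered the tests through knockout arrays alone, and the contrast was not made without it.

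Other genes of T cell receptor signalling, 21 measured of 33 listed, were read beside these members. For VILI averaged over genotypes 6 were called higher and 1 lower, against 17.8% of all genes. Fyb rose by 1.04 (adjusted p = 0.0114) and Lcp2 (SLP-76) by 1.15 (adjusted p = 0.0153), both adaptors that work with Lat, and Plcg1, a phospholipase of the same complex, fell by 0.32 (adjusted p = 0.0160). Vav1 (1.30) and Sla (1.24) were called too, and lost the call in 5 and 8 of the 12 fits that left out 1 array. Bcl10 and Malt1, which link the receptor to NF-kB, were the other 2 called. Lcp2, Fyb, Vav1 and Sla are also expressed by myeloid cells. The mean of 12 neutrophil markers was 6.45 to 7.44 on the 6 SB arrays and 8.83 to 10.5 on the 6 VILI arrays, and its part in these changes was not tested.

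Other NK and cytotoxic genes, 11 measured of 32, had 5 called higher and 0 lower for the same average, against 17.8% of all genes called. Il18rap, the accessory chain of the interleukin-18 receptor, rose by 2.24 (adjusted p = 0.0025). Nfil3 (2.37), a factor needed for NK development, Tyrobp (0.87), the DAP12 adaptor, and Fcgr3 (0.86), an Fc receptor, lost their calls in 9, 9 and 10 of the 12 fits that left out 1 array. Id2, also a factor of NK development, was the other gene called. The receptor genes Klra8 and Klrc1 of this list were measured and not called. Klra8 averaged 6.36 in wild type SB and 6.86 with VILI, and 6.29 in knockout SB and 6.16 with VILI. Klrc1 averaged 5.85 and 5.94 in wild type, and 5.70 and 5.89 in knockout, in the same order. Tyrobp and Fcgr3 are myeloid genes as well. Id2 read 12.18 to 13.04 over all 12 arrays. Nfil3 already read 8.35 on wild type SB replicate 2, within the 8.27 to 8.72 of wild type VILI. Which cells carried the 5 called changes was not tested. The same 17.8% is the share beside the next 3 lists. Among 7 measured chemokines and cytokines that attract or activate these cells 1 was called: Cxcl10, a ligand of the T and NK cell receptor Cxcr3, which rose by 2.07 (adjusted p = 0.0189). Cxcl10 averaged 4.77 in wild type SB and 5.78 with VILI, and 5.09 in knockout SB and 8.22 with VILI (SD 1.90). Its highest value, 10.19, was on knockout VILI replicate 3, and the averaged call was kept without the 2 arrays. Within genotypes it was called for VILI in knockout, as were 4.47% of all genes, and not in wild type. Among 8 measured genes of regulatory and innate-like T cells 3 were called, and the activation marker Cd44 rose by 0.50 (adjusted p = 0.0058). Cd69 (1.65) and Sox13 (-1.14) were also called, and lost the call in 7 and 8 of the 12 such fits. Tox, 1 of 4 measured genes of the immature thymocyte list, was called (0.83) and lost the call in 7. No gene of these lists, of the B cell list or among Cxcl13, Ltb and Cd37 was called in a genotype contrast.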

How the data were processed

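The authors deposited log2 expression values for 45101 probe sets on 12 arrays. MAS5 and GCRMA are named in the submitters' processing notes, with no role or version. The 64 control probe sets were left out, and no scaling was added. Probe sets above their array's median on at least 3 arrays were kept, and where a gene had several, that with the highest mean over the arrays was used, giving 10996 genes. Names came from the platform annotation. Limma 3.58.1 in R 4.3.3 (with the package data.table, version 1.17.8) fitted 1 mean per group with a mean-variance trend (8 residual and 3.36 prior degrees of freedom). Two-sided p-values were adjusted by Benjamini-Hochberg over all genes, at a threshold of 0.05. The fit was tested on simulated data first. Figures used matplotlib 3.10.9.

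The series design gives 3 mice per group, and p-values measure the spread between these samples. The members and lists were chosen with earlier results of these data known. Values on every array are given for the 4 T cell and 4 NK members with the largest absolute VILI change averaged over genotypes, plus Cd4, Cd8a, Cd3e, Ncr1, Klrb1c, Gzma, Gzmb and Ifng; Klrb1c has no probe set of its own and so no value. From each other list, at most 4 called genes in each direction, by size, are given with values. Alternatives covered filters, floor, scaling, probe set choice, spread, samples fitted, replicate block and left-out arrays. Same-numbered arrays deviated together in all 3 pairs between wild type SB and knockout SB (correlations 0.23 to 0.53), which meets the limit of 0.1 set for pairing; no other pair of groups met it. The labels do not say what the numbers share.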

Additional observations from a re-analysis of the deposited data

Results flagged for a closer look

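For Gzma and Nkg7 each wild type VILI array lay above the wild type SB mean and each knockout VILI array below the knockout SB mean, which is what singled them out. Gzmb also had mean changes of opposite sign (0.69 and -0.50), but 1 of its wild type VILI arrays lay below the wild type SB mean. For Gzma, granzyme A, the VILI change in knockout minus that in wild type was -1.47 (SE 0.51, unadjusted p = 0.0146). For Nkg7, the granule membrane protein, it was -0.98 (SE 0.44, unadjusted p = 0.0445). Neither passed after adjustment over 10996 genes (limma, adjusted p = 1.0 for both), so a difference between genotypes was not shown.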

How the results depend on the processing

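The counts of tested members past the adjusted threshold were 0 in each contrast that an alternative covered, over 24 alternatives, except with array weights, which gave 1 for VILI in wild type: Gzmb, at 0.94 (adjusted p = 0.0413), where 2204 genes were called in place of 290. The cause was not tested. The counts ranged from 0 to 0 over the 12 fits that left out 1 array, where the lowest adjusted p of a member quoted was 0.0858 for knockout averaged over treatments (Cd3g) and 0.687 for the interaction (Gzma). Over the other alternatives these were 0.0560 (Cd3g, no filter) and 0.493 (Gzma, array weights). Cd3g entered the main tests through knockout arrays alone. For Cd247 the lowest adjusted p over the left-out arrays was 0.0963, for knockout averaged over treatments. Of 18 same-numbered pairs 10 correlated above 0.1, between -0.16 and 0.53, and only those of wild type SB with knockout SB did so in all 3 pairs. The fit with the replicate number as a block called 0 members in each contrast. A block fitted on the SB arrays alone, chosen after seeing the data, also called 0 of 17, with a lowest adjusted p of 0.188 among the members quoted (Klrd1 and Nkg7), so the block changed no call. The mean NK minus T cell difference, in group contrasts, stayed within 1 pooled SD (0.64) of its value in each alternative that gave one. The 2 arrays that stood apart widen that SD, so staying within it does not show stability. Knockout SB and VILI had SDs of 0.56 and 1.06 with them, and 0.20 and 0.11 without. Over the left-out arrays the NK minus T cell difference spanned 0.06 to 0.44 for VILI in wild type and -0.74 to -0.20 for knockout in SB. It spanned -1.57 to -0.62 for knockout after VILI, and -0.77 to 0.19 for VILI in knockout, which covers both signs. Of the 17 called genes from the other lists, 9 kept the call in all 12 left-out fits, 4 lost it without the 2 arrays and 7 lost it with no filter on low values. A mean over probe sets moved Plcg1 from -0.32 to -0.09. The array medians that set the filter leave 18 members without a test, which lie mostly below those medians.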
